A study of Mus musculus with 4 samples.

Results

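Mature migratory dendritic cells are antigen-presenting cells that have left their sentinel state and carry antigen from a tissue towards the draining lymph node. In the single-nucleus RNA data of mouse inguinal fat, a subcutaneous white depot, 582 of 50067 kept nuclei had the transcripts that mark this state. A nucleus was taken when it had at least 300 genes, at most 10% of its UMIs (unique molecular identifiers, 1 per captured RNA molecule) from mitochondrially encoded genes, at least 1 UMI for 3 or more of Apol7c, Slco5a1, Zfp366, Fscn1, H2-M2, Cacnb3 and Mreg, and fewer than 4 of 9 adipocyte genes (Adipoq, Plin1, Cidec, Acsl1, Ghr, Pde3b, Fam13a, Acaca and Gpam). The 7 marker genes chose the nuclei, so their levels are given as a description with no test.

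The nuclei came from C57BL/6N mice aged 6 months, with 2 libraries labelled wild type (genotype WT) and 2 labelled PTRF knockout. The titles give each library its own mouse name (such as WT1 mice), and do not say whether it came from 1 mouse or several. PTRF, now called cavin-1 and encoded by Cavin1, coats the membrane pits named caveolae, and the series title speaks of a distal enhancer of that gene. How the allele was made, and whether it is lost in every cell, were not found in the labels. Values over the 4 libraries are given below in the order labelled wild type 1, labelled wild type 2, labelled knockout 1, labelled knockout 2. Cavin1 had 0, 0, 4 and 9 UMIs in the mature dendritic cell nuclei and 1.81, 1.04, 53.9 and 50.5 CPM (counts scaled to a common total per library) over all kept nuclei. The targeted transcript was thus at its higher level in the libraries labelled knockout, against those labels. The names of the deposited files also carry the opposite genotype to the labels. Which of them is right was not settled here, and each direction below is that of the labels only.

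Dendritic cells that mature raise the chemokine receptor CCR7, the actin bundler fascin (Fscn1) and the NF-kB subunit RelB, and show costimulatory molecules such as CD40 with cytokines that act on T cells. In the same step they load their surface with peptide on MHC class II and then switch off CIITA, the coactivator that class II genes need, so that new class II transcription falls. In fat, dendritic cells sit among macrophages and lymphocytes, which include adipose B and T cells.

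Regulatory sequences of genes of both programs are shown first. Only promoters with a match were chosen for display, and whether the motifs bear on the RNA differences below was not tested. Each sequence is the 250 bases before a RefSeq start site (GRCm38.p6), read 5' to 3' along the gene. In the first 4, promoters of NF-kB pathway genes, capitals mark matches to the κB motif, the site to which NF-kB dimers bind, on either strand, with overlapping matches joined.

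Rel (chr11:23770970-23771219, minus strand): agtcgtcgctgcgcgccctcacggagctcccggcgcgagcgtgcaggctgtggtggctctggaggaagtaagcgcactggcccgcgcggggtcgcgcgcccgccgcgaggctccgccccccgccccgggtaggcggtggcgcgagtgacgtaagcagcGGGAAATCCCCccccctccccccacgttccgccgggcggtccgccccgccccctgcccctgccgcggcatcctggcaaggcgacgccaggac
Nfkb2 (chr19:46304487-46304736, plus strand): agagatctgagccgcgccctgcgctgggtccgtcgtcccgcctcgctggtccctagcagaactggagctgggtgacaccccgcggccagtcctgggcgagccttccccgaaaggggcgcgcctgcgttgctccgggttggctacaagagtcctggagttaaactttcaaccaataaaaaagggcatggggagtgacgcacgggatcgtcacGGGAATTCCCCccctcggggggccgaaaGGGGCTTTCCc
Nfkbia (chr12:55492648-55492897, minus strand): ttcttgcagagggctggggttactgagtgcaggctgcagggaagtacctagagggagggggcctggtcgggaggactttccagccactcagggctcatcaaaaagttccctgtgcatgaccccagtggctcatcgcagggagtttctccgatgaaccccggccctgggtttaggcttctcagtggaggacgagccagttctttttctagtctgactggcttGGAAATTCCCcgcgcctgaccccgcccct
Tnfaip3 (chr10:19015411-19015660, minus strand): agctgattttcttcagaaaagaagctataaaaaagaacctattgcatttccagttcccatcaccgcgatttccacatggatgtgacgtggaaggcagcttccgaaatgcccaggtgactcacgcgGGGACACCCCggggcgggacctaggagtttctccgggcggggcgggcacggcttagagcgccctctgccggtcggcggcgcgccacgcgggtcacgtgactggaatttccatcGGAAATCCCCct

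Rel encodes the c-Rel subunit, Nfkb2 the p100 precursor that pairs with RelB, Nfkbia the inhibitor IκBα, and Tnfaip3 the ubiquitin-editing inhibitor A20. The next 2 are promoters of class II genes, and capitals mark CTGATTGG, the core of the Y box, to which NF-Y binds beside the factors that recruit CIITA. Matches to the κB motif are not marked in these 2, although the H2-Aa sequence holds a κB match as well (gggagttccc).

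H2-Aa (chr17:34287824-34288073, minus strand): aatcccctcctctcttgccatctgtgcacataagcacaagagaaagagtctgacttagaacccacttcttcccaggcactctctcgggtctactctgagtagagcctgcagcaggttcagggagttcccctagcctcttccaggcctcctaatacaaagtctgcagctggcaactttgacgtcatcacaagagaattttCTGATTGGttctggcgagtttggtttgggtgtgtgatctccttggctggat
H2-Eb1 (chr17:34305617-34305866, plus strand): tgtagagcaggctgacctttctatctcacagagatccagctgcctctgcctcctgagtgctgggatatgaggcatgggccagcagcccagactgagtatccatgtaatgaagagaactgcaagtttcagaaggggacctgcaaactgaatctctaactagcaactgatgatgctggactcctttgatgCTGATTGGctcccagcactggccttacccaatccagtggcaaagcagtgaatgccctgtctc

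Counts of matches used windows of 300 bases, 250 before to 50 after the start, on both strands. A κB match lay in the windows of 7 of the 17 NF-kB pathway genes found in RefSeq (41.2%), of 3 of 8 class I genes (37.5%), of 3 of 19 genes of the maturation program (15.8%), of 1 of 10 class II genes (10.0%) and of 9.55% of all 27025 symbols. The class II gene with a κB match was H2-Aa. CTGATTGG lay in 4 of 10 class II genes (40.0%), 4 of 8 class I genes and 4.70% of all symbols. The class II matches were in H2-Aa, H2-Eb1, H2-Eb2 and H2-Oa. Windows of 1 gene can overlap or be several, and a match describes letters only.

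The nuclei numbered 320, 117, 66 and 79 by library, which is 2.06% (exact 95% binomial interval 1.84 to 2.30), 1.76% (1.45 to 2.10), 0.551% (0.426 to 0.700) and 0.497% (0.394 to 0.619) of the kept nuclei. Both libraries labelled wild type lay above both labelled knockout, and the intervals, which cover counting error only, did not overlap between the groups. The mean share was 1.91% ± 0.216 (SD, n = 2) in the group labelled wild type and 0.524% ± 0.0377 (SD, n = 2) in the group labelled knockout, a ratio of 3.64. An exact two-sided permutation test gave p = 0.33, the smallest that 2 against 2 allows. Since these shares are counts of nuclei that passed the rule, fewer such cells and fewer captured UMIs of the 7 genes cannot be told apart.

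Depth did not follow the labels. Median UMIs of the mature dendritic cell nuclei were 2215, 2050, 1420 and 2794, and with each nucleus thinned to 500 UMIs the shares were 1.06%, 0.855%, 0.242% and 0.283%. The thinned ratio was 3.64 as well. The adipocyte limit left out 15, 1, 5 and 28 nuclei that had 3 or more marker genes, most of them in the library labelled knockout 2. Without that limit the nuclei numbered 335, 118, 71 and 107, and the ratio was 3.10. The denominator mattered most. Over nuclei passing an immune gate the shares were 15.1%, 19.4%, 7.38% and 2.44%, and over nuclei passing a myeloid gate (macrophage, conventional or mature dendritic) they were 55.4%, 48.0%, 38.6% and 17.0%, with a ratio of 1.86. In each of these counts the libraries labelled wild type lay above those labelled knockout.

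**Figure D1:**
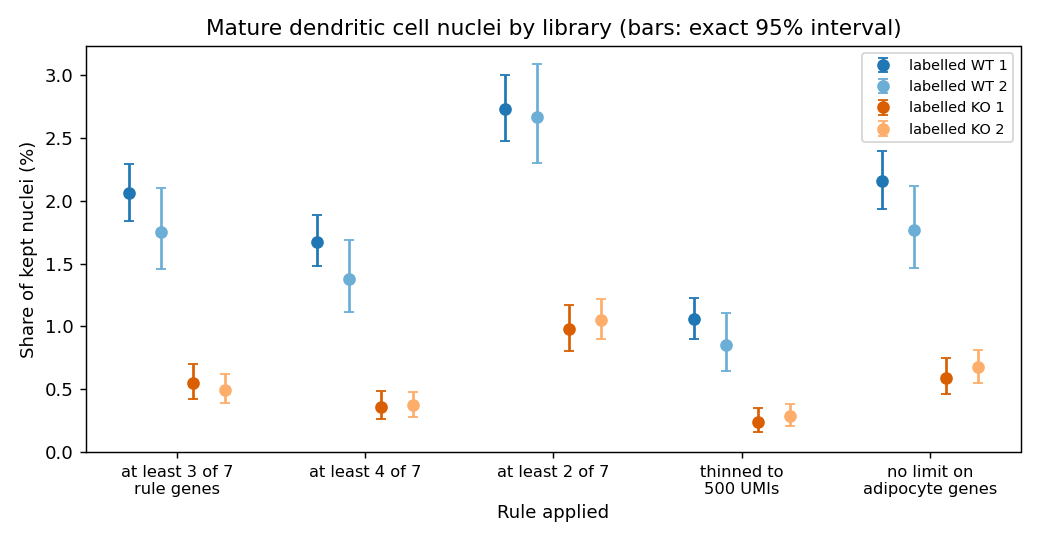
Share of kept nuclei (%, y axis) that passed the mature dendritic cell rule in each library, for the rule and 4 other settings (x axis); points are libraries and bars exact 95% binomial intervals. Both libraries labelled wild type (1.76% and 2.06% under the rule) lie above both labelled knockout (0.497% and 0.551%) at each setting.

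Other immune nuclei had other orders. Macrophage nuclei (3 or more of 10 markers such as Mrc1 and Adgre1) made up 1.46%, 1.77%, 0.709% and 2.10% of the libraries, and the labelled groups overlapped. B cell nuclei were 4.42%, 2.85%, 3.93% and 10.4%, also overlapping, with the library labelled knockout 2 standing apart. Conventional dendritic cell nuclei, the resident relatives, were 32, 9, 20 and 52 in number, or 0.206%, 0.135%, 0.167% and 0.327%. No label difference was tested for these classes.

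Among the 7 marker genes, Slco5a1, an organic anion transporter family member, had a UMI in 82.3% of the mature dendritic cell nuclei and Apol7c, an apolipoprotein L family gene, in 48.5%, the highest and lowest of the set. Zfp366, which encodes the dendritic cell zinc finger protein DC-SCRIPT, stood at 76.8%, Mreg (melanoregulin) at 75.8%, the calcium channel subunit gene Cacnb3 at 70.1%, Fscn1 at 67.9% and the class Ib gene H2-M2 at 63.1%. In conventional dendritic cell nuclei Zfp366 had a UMI in 41.6%, and Cacnb3 and H2-M2 in 0 of 113, which allows a share of up to 2.65%. The markers Apol7c and Cacnb3 lie at chr15:77524852-77533316 and chr15:98630840-98644529, Slco5a1 and Mreg at chr1:12866549-12992650 and chr1:72159442-72212307, Fscn1 at chr5:142960343-142973185, Zfp366 at chr13:99184823-99250656 and H2-M2 at chr17:37480851-37483552 (GRCm38, GENCODE M21).

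Nuclei with exactly 3, 4, 5, 6 and 7 of the marker genes numbered 128, 129, 119, 118 and 88, and their median UMIs were 1218, 1626, 2086, 3055 and 3802. Just outside the threshold lay 304 nuclei with 2 marker genes. A list of 25 other genes of the maturation program holds none of the rule, but was put together with results of these data known. Its values describe the nuclei and are no independent test of the rule. The list gave a mean of 2.88 genes with a UMI in those 304 nuclei, 5.49 in the nuclei with 3 marker genes and 12.0 in those with 7. After thinning to 500 UMIs these means were 1.58, 2.89 and 4.25, and that of the nuclei with no marker gene was 0.458. At least 2 program genes were seen in 58.2% of the nuclei with 2 marker genes and in 92.2% of those with 3. Of the 582 nuclei, 3 had no program gene and 8 had 1.

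**Figure D2:**
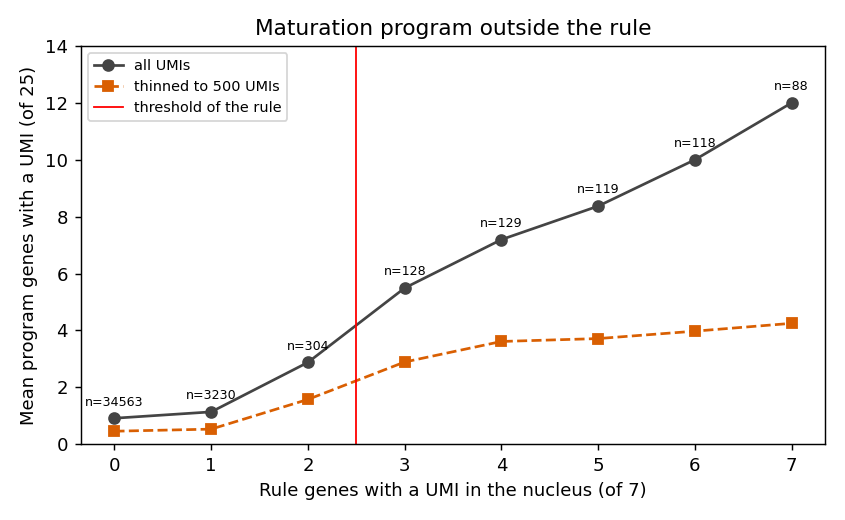
Mean number of the 25 program genes with a UMI (y axis) against the number of the 7 marker genes (rule genes) with a UMI (x axis), over nuclei with fewer than 4 adipocyte genes; n is the number of nuclei and the red line the threshold. The mean over all UMIs goes from 2.88 just below the threshold to 5.49 just above it and 12.0 at 7 genes, and thinned to 500 UMIs from 1.58 to 2.89 and 4.25.

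Genes of other cell types were also seen. The gates (3 or more markers) for luminal mammary epithelium, T or NK cells, conventional dendritic cells, macrophages and B cells were also passed by 13, 8, 5, 3 and 2 of them. Leaving conventional dendritic cells aside, 7, 2, 1 and 15 nuclei by library passed such a gate. The 10 macrophage markers summed to 130, 141, 133 and 140 CPM, against 6477 to 8145 in macrophage nuclei, and the B cell markers to 62.6, 134, 124 and 163 CPM, against 5725 to 10203 in B cell nuclei. Those genes chose the macrophage and B cell nuclei, so their high levels there were set by the gates. In the remaining nuclei the sums were 389 and 534 CPM over all libraries. The remaining nuclei are those given no class, and include nuclei with 4 or more adipocyte genes or passing more than 1 gate. The 12 adipocyte genes summed to 606, 487, 560 and 1457 CPM and the 15 mammary epithelial genes found in the files to 264, 154, 240 and 1158 CPM, so the library labelled knockout 2 was high for both. At least 1 adipocyte gene of the rule had a UMI in 369 of the 582 nuclei (206, 54, 31 and 78), which is 78 of 79 in the library labelled knockout 2. Median mitochondrial shares were 1.60%, 1.35%, 3.56% and 2.24%, higher in both libraries labelled knockout. No barcode was a mature dendritic cell nucleus in 2 libraries, and 508 kept barcodes occurred in more than 1 library.

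Against macrophage nuclei of the same libraries, the mature dendritic cell nuclei had the maturation program, the NF-kB pathway and class I presentation at higher levels and the class II genes at lower levels. Summed counts were compared in edgeR's quasi-likelihood test with the library as a block, on 6577 genes with all marker genes of the gates left out, and adjusted p-values are by Benjamini-Hochberg over those genes at a threshold of 0.05. Of all genes, 16.3% rose and 17.4% fell in the mature dendritic cell nuclei, and the median log2 difference was -0.08. A rule on 7 genes also draws in genes that travel with them, so these tests compare the nuclei as gated. The lists were put together with results of these data known. They also share genes, for example Relb, Traf1 and Birc3 on the program and NF-kB lists, so their counts are not independent of each other. Levels are CPM normalised within each comparison by the trimmed mean of M-values (TMM), so a gene's CPM can differ slightly between comparisons.

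Ccr7, which guides dendritic cells into lymphatics, had 545, 279, 243 and 492 CPM in the mature dendritic cell nuclei and 5.47, 0, 0 and 1.19 CPM in macrophage nuclei. The classes did not overlap, and the log2 difference was 7.54 (SE 0.50, adjusted p = 2.45e-14). It had a UMI in 41.9% of the mature dendritic cell nuclei (13.2% after thinning) and in 0.885% of conventional dendritic cell nuclei. In macrophage nuclei the share was 0.394% (0.262% thinned), and in the remaining nuclei, the mixed set given no class, 1.27%. T cells use the same receptor, and T or NK nuclei had it in 8.40%. Of the 25 program genes 23 could be tested and 22 rose, with a median log2 difference of 4.10, which stays at 4.10 with Nudt17 at its bound. The genes under the filter were Ccl17 and Ebi3, seen in 0.687% and 3.09% of nuclei. Cd200, a checkpoint ligand, did not pass (1.10, adjusted p = 0.166).

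Samsn1, an adaptor that restrains receptor signalling, had 2846, 2495, 2941 and 2141 CPM against 118, 192, 11.8 and 107 in macrophage nuclei (log2 difference 4.55). Tmem123, the gene of the membrane mucin porimin, had 1818, 1932, 2177 and 1939 CPM against 27.4, 23.0, 23.7 and 48.7 (5.82). For both genes every mature dendritic cell sum lay far above every macrophage sum. Socs2, a suppressor of cytokine signalling, rose by 4.62, the transcriptional repressor Etv3 by 4.10 and the amino acid oxidase gene Il4i1 by 4.25 on the log2 scale. Nudt17 had 80 UMIs against 0 in macrophage nuclei, at least 25.8-fold higher on a floor of 3 counts over the group.

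The migration and actin list had 12 genes that rose and 2 that fell of 19 tested (median 2.11). Dock10, an activator of Cdc42 and Rac, was abundant at 8983, 8598, 5778 and 4968 CPM against 1185, 461, 332 and 1124 in macrophage nuclei, without overlap (3.29, adjusted p = 1.87e-10). Basp1 (3.54), the membrane linker genes Marcks (2.13) and Marcksl1 (4.25), and the adhesion receptor gene Icam1 (3.10) rose as well. Dock2 (-0.44) and Elmo1 (-0.52), partners in chemokine-driven Rac activation, did not pass the test. The 2 that fell were Arhgap15 (-3.17), a Rac GTPase-activating protein, and Vcam1 (-2.15).

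**Figure D3:**
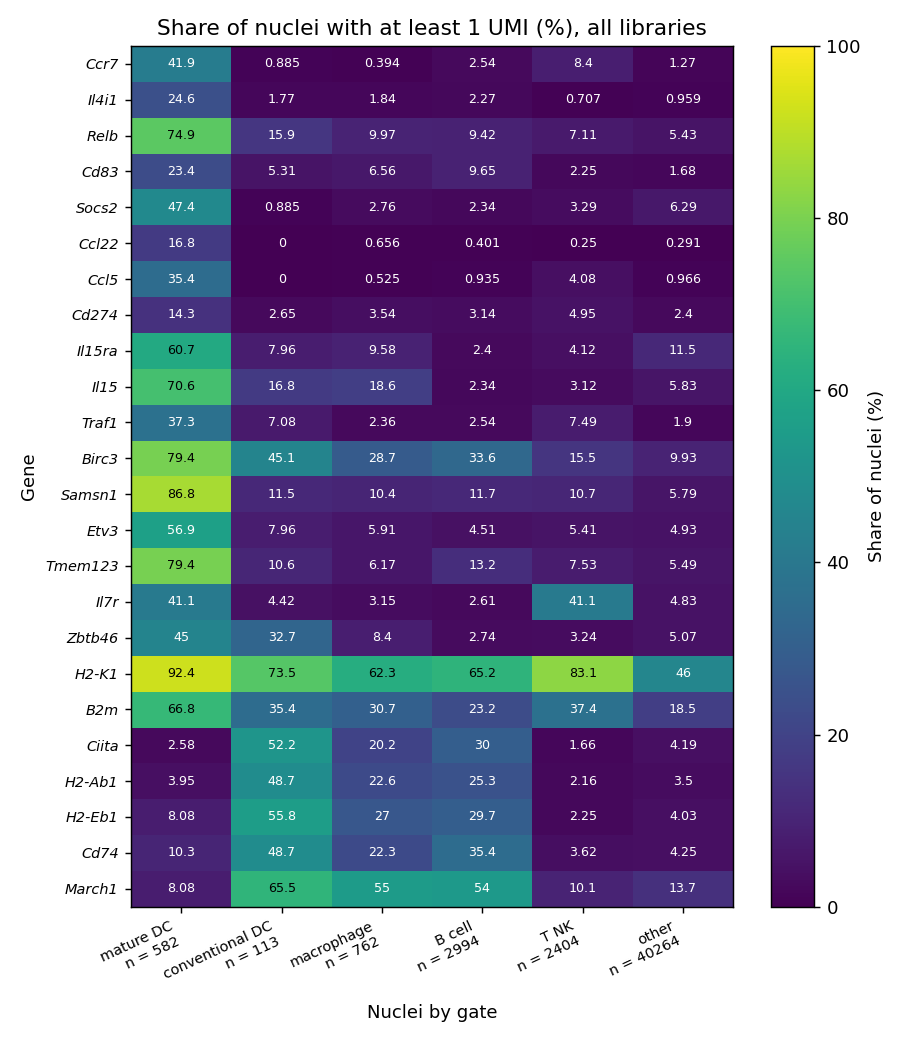
Share of nuclei with at least 1 UMI (%, colour and number) for 24 genes (rows) in 6 sets of nuclei defined by gates (columns), all libraries together; shares rise with depth, and median UMIs were 2111 in mature and 1639 in conventional dendritic cell, 1383 in macrophage, 1087 in B cell, 1231 in T or NK and 936 in other nuclei. The upper rows are high in mature dendritic cell nuclei (Ccr7 41.9%, Relb 74.9%), and the class II rows are high in conventional dendritic cell nuclei (H2-Ab1 48.7% against 3.95%).

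Of 21 tested NF-kB pathway genes 17 rose and 0 fell, with a median of 1.93. Relb had 1489, 1284, 1401 and 1279 CPM against 52.0, 30.7, 71.1 and 112 in macrophage nuclei, without overlap (4.32, SE 0.31, adjusted p = 2.01e-13). Its share of nuclei with a UMI was 74.9%, or 37.3% after thinning, against 15.9% and 3.54% in conventional dendritic cell nuclei. Genes of the promoters shown above rose too: Rel by 2.35, Nfkb2 by 2.70, Nfkbia by 2.77 and Tnfaip3 by 3.19 on the log2 scale. Nfkbia had 1053, 856, 1065 and 1060 CPM against 227, 108, 178 and 106, so the 4 libraries were close to each other and above each macrophage value. The adaptor and ubiquitin ligase genes Traf1 (4.25), Birc2 (3.91) and Birc3 (2.75) rose, as did the receptor genes Cd40 (3.73) and Tnfrsf11a (1.80), which encodes RANK. Differences were 0.43 for Chuk, 0.03 for Nfkbiz, 0.60 for Bcl3 and -0.78 for Ikbkg, none past the threshold.

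Costimulation and checkpoint genes were mixed, with 7 higher and 2 lower of 13 tested (median 1.49). Cd40 had 542, 644, 382 and 308 CPM against 21.9, 69.1, 23.7 and 29.7, without overlap. Slamf7 (3.25), Icosl (2.68), the PD-L1 gene Cd274 (2.66), Pvr (2.43) and Cd83 (2.20) rose. The B7 genes Cd80 (0.05, adjusted p = 0.932) and Cd86 (-0.60, adjusted p = 0.121) did not pass, and Cd86 had a UMI in 20.6% of mature dendritic cell and 23.4% of macrophage nuclei. Vsir, which encodes the checkpoint VISTA, fell by 2.91 and Lgals9 (galectin 9) by 3.21.

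Among 17 tested cytokine, chemokine and receptor genes, 11 rose and 3 fell (median 2.23). Ccl5, a chemokine for T cells, had 442, 387, 428 and 822 CPM, against 0, 0, 0 and 4.75 in macrophage nuclei (7.78, SE 0.47, adjusted p = 4.33e-15). It had a UMI in 35.4% of the nuclei and in 0 of 113 conventional dendritic cell nuclei, which allows up to 2.65%. Ccl22, the CCR4 ligand that draws regulatory T cells, had 156, 81.1, 127 and 290 CPM against 0, 0, 0 and 7.13 (5.79). Il15 and its presenting receptor Il15ra, which act together on NK and memory T cells, rose by 2.97 and 3.78. Their UMIs were seen in 70.6% and 60.7% of the nuclei, against 18.6% and 9.58% of macrophage nuclei. Il12b, the p40 subunit gene, rose by 4.32 with a UMI in 6.53% of nuclei, and Il7r by 4.19 with a share of 41.1%. Tgfb1 (-2.73), Ifngr1 (-1.70) and the GM-CSF receptor gene Csf2ra (-1.001, adjusted p = 0.0472) fell, but the call of Csf2ra was lost in 7 of 10 settings, DESeq2 and leaving out labelled wild type 1, labelled wild type 2 or labelled knockout 2 among them, and that of Ifngr1 without labelled wild type 1. Il6 had a UMI in 1.72% of nuclei, Il10 in 0.515%, and Il1b, Ccl19 and Cxcl10 in 0 of 582, which allows up to 0.515%.

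Of the tolerance and signalling suppressor list, 5 rose and 1 fell of 10 tested. The 5 include Il4i1, Socs2 and Cd274, which are also on the maturation program list. Cblb, a ubiquitin ligase, had 2509, 3139, 2768 and 2115 CPM against 539, 261, 82.9 and 270 (3.23), and Itgb8, the integrin subunit that activates latent TGF-β, had 392, 401, 255 and 220 CPM against 10.9, 23.0, 11.8 and 9.51 (4.59). Neither gene overlapped between the classes. Ido1 differed by 2.12 (adjusted p = 0.124) and rested on the library labelled knockout 2, with 7.45, 4.50, 0 and 149 CPM. Aldh1a2, which makes retinoic acid, differed by 0.22 (adjusted p = 0.807).

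Class II presentation went the other way: of the 8 genes tested among 14 listed, 0 rose and 7 fell, with a median of -2.33. Ciita had 20.8, 27.0, 0 and 8.79 CPM against 167, 192, 296 and 208 in macrophage nuclei, without overlap (-3.50, SE 0.42, adjusted p = 1.58e-08). H2-Ab1, the class II beta chain gene, had 23.8, 9.01, 23.2 and 61.6 CPM against 238, 69.1, 237 and 308, again without overlap (-2.89, SE 0.37, adjusted p = 6.94e-08). H2-Aa (-1.44) and H2-Eb1 (-1.77), whose promoters are shown above, the invariant chain gene Cd74 (-1.27), the peptide-exchange gene H2-DMb1 (-3.62) and March1 (-4.09), a ubiquitin ligase that removes class II from the surface, fell. Ctss, the protease that trims the invariant chain, did not pass (0.49, adjusted p = 0.121). The Cd74 call was lost without the library labelled wild type 1.

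Values beside conventional dendritic cell nuclei are given with no test, which was to be run with at least 10 such nuclei in each library, and 1 library had 9. Ciita had a UMI in 2.58% of mature and 52.2% of conventional dendritic cell nuclei (0.859% and 24.8% after thinning), and H2-Ab1 in 3.95% and 48.7% (1.03% and 18.6% thinned). Their levels over all libraries were 14.6 and 684 CPM for Ciita and 22.6 and 815 CPM for H2-Ab1, without scaling. In mature dendritic cell nuclei H2-Ab1, H2-Aa and Cd74 had shares of 3.95%, 8.76% and 10.3%. These lay above the 3.50%, 4.19% and 4.25% of the remaining nuclei, whose median was 936 UMIs against 2111. After thinning the shares were 1.03%, 2.75% and 2.41% against 1.77%, 2.24% and 2.14%, so that these low levels could not be told from background RNA. The remaining nuclei are a mixed set and not a measure of background RNA alone. Ciita, at 0.859% thinned, was below the 2.39% of those nuclei.

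Class I genes moved together, with 10 of 10 tested, among 11 listed, higher than in macrophage nuclei (median 2.26). H2-K1 had 3479, 3112, 4759 and 3816 CPM against 938, 944, 853 and 1005 (1.99), B2m 975, 833, 1007 and 1455 CPM against 230, 177, 249 and 398 (2.04), and neither overlapped. The class I coactivator gene Nlrc5 rose by 2.23, the peptide transporter genes Tap1 and Tap2 by 2.29 and 2.80, and the immunoproteasome genes Psmb8 and Psmb9 by 3.76 and 2.69.

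**Figure D4:**
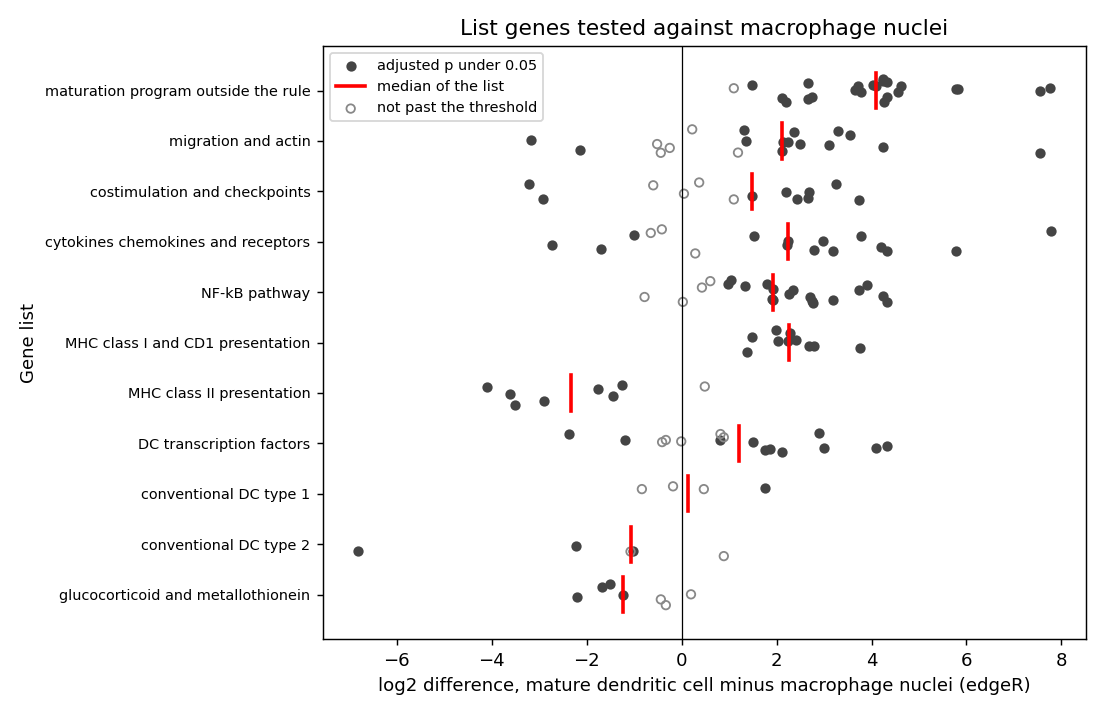
Log2 difference between mature dendritic cell and macrophage nuclei (x axis, edgeR) for the tested genes of 11 lists (y axis); filled points pass an adjusted p of 0.05, open points do not, and red lines are list medians. The program (median 4.10), class I (2.26) and NF-kB (1.93) lists lie to the right, and the class II list (-2.33) to the left.

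Transcription factor genes of dendritic cells were higher for 9 and lower for 2 of 16 tested. Zbtb46, the factor that marks the classical dendritic lineage, had 547, 423, 278 and 295 CPM against 43.8, 23.0, 47.4 and 77.2 (2.90), without overlap. It was seen in 45.0% of mature and 32.7% of conventional dendritic cell nuclei. Id2 (3.00), Etv6 (1.51), Stat5a (1.85) and Batf3 (1.76) rose, whereas Irf4 differed by 0.89 (adjusted p = 0.130). Bach2 fell by 1.20, a call lost without the library labelled wild type 1, and Batf by 2.36. Flt3, the growth factor receptor gene of dendritic cells and a marker of the conventional gate, had a UMI in 52.7% of mature dendritic cell nuclei and in 2.36% of macrophage nuclei. Irf8 is listed at 0 in every class, B cells included, and says nothing here.

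Several markers that split the conventional subsets were scarce in the mature dendritic cell nuclei, but not all of them. Batf3, on the type 1 list, rose against macrophage nuclei as given above, and Irf4, on the type 2 list, did not pass. Of the type 1 genes 1 rose and 0 fell of 4 tested against macrophage nuclei, and of the type 2 genes 0 rose and 3 fell of 5. The type 1 genes Xcr1 and Clec9a had a UMI in 0.859% and 1.20%, against 17.7% and 49.6% of conventional dendritic cell nuclei, whose gate uses them. The type 2 genes Cd209a, Cd209d and Itgam had 0 of 582, and Clec10a 0.515%. Ccr2 had 2.98, 4.50, 0 and 0 CPM against 482, 177, 35.5 and 171 in macrophage nuclei (-6.82, adjusted p = 7.11e-12), and Sirpa fell by 2.23. The Langerhans cell lectin gene Cd207 was seen in 1.03% of nuclei, and Mfge8, a bridge to apoptotic cells, rose by 2.67 with a UMI in 11.0%.

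Outside the lists, the genes with the largest rise against macrophages included Adam23, a disintegrin family gene, with 3005, 2734, 3277 and 2396 CPM against 13.7, 38.4, 23.7 and 29.7 (6.73, adjusted p = 2.21e-16). Tmem150c (6.36), the adenylate cyclase gene Adcy6 (6.15), the granzyme B inhibitor gene Serpinb9 (6.12), the zinc finger gene Insm1 (6.35), Hmgn3 (6.88), Heatr9 (6.04) and the adenosine receptor gene Adora2a (5.65) rose too. Gadd45b, a stress response gene, had 148 UMIs and Serpinb6b 97, against 0 in macrophage nuclei, at least 47.7-fold and 31.3-fold higher. At the other end, Clec4a2 had 0 UMIs against 145, Tlr7 0 against 197, Clec4a3 0 against 133, Pilrb1 0 against 82 and Slc39a12 0 against 53, at least 49.95-fold, 67.9-fold, 45.8-fold, 28.2-fold and 18.3-fold lower. Retnla (-7.26), Il1rl1 (-6.23), Ednrb (-6.19), Ccl6 (-5.97), Cd209b (-5.95), Cd300lb (-5.82) and Klra2 (-5.70) fell.

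Set against B cell nuclei, the mature dendritic cell nuclei again had the program, NF-kB and class I lists high and the class II list low. Over 8138 genes tested with edgeR, 19% rose and 20.4% fell, with a median of -0.15, and the 3209 calls became 1959 without the library labelled wild type 1. The maturation program had 21 of 23 tested genes higher and 0 lower (median 3.89), the NF-kB list 19 and 0 of 21 (1.76), class I 9 and 0 of 10 (1.93), and class II 1 and 9 of 11 (-2.99). The mature dendritic cell sums are in both comparisons, so they are not independent of each other. Il15 had 1820, 1370, 785 and 1452 CPM against 14.3, 15.6, 31.5 and 22.9 in B cell nuclei (5.98), and Batf3 253, 133, 136 and 160 CPM against 0, 10.4, 5.25 and 2.63 (5.75). Both genes were without overlap between the classes. Epsti1, an interferon-inducible gene, was abundant, with 14953, 12976, 9623 and 8184 CPM against 194, 104, 200 and 253 (5.88), and it was also higher than in macrophage nuclei (3.69). The chemokine gene Cxcl16 (6.35), the MYC antagonist gene Mxd1 (6.16), Phf24 (6.23), Strip2 (5.75) and the antiviral gene Mx1 (5.90) rose. Genes of B cell function were low: Cr2 (-6.33), Fcer2a (-7.35), Pou2af1 (-6.75), Mef2c (-5.60), Cd72 (-5.46), Ms4a4c (-5.51), Iglc2 (-5.84) and H2-Ob (-6.61) fell, and Ighg2b had 0 UMIs against 368, at least 49.4-fold lower.

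Within the mature dendritic cell nuclei, few genes passed the threshold between the labelled groups. With 2 libraries in each group, this does not show that few genes differed. Of 4485 genes tested with edgeR on 4 sums, 4 were higher in the group labelled knockout (0.0892%) and 0 were lower, while an unadjusted p under 0.05 was reached by 214 in the first direction and 133 in the second. DESeq2 also called 4 higher and 0 lower. The count was not stable, and was higher with any 1 library left out. In those fits 1 group kept a single library, and the set of tested genes differed. Sums rested on 846110, 291437, 112569 and 257366 UMIs, so the library labelled knockout 1 was the shallowest. None of 22 tested program genes was called, with a median of 0.24 against 0.01 over all genes: Ccr7 had 484, 258, 233 and 466 CPM (-0.05, adjusted p = 0.990) and Relb 1322, 1184, 1340 and 1211 (0.02, adjusted p = 0.995), with the groups overlapping in both.

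The called gene with the largest difference was Gm47283, a predicted protein-coding gene annotated at chrY:90784738-90816464, with 14.5, 8.31, 986 and 695 CPM (log2 difference 5.98, SE 0.39, adjusted p = 1.16e-07). The groups were far apart. Xist, the noncoding RNA of the inactive X chromosome, was present in each library (558, 487, 418 and 633 CPM without scaling) and overlapped. The Gm47283 split was seen over all kept nuclei (42.4, 28.9, 2245 and 1465 CPM without scaling), and the difference of the label effect between mature dendritic cell and macrophage nuclei was -0.35 (adjusted p = 1.0). Rpsa, which encodes a ribosomal protein, had 153, 95.5, 421 and 658 CPM (2.09, SE 0.32, adjusted p = 0.0142). Actb, beta-actin, had 641, 457, 1307 and 1669 CPM (1.43, SE 0.26, adjusted p = 0.0390), and Tmem56 had 19.8, 20.8, 99.7 and 221 CPM (3.06, SE 0.54, adjusted p = 0.0390). In each the lowest library labelled knockout lay above the highest labelled wild type. Ribosomal protein and actin genes have processed pseudogene copies, and Gm47283 may share reads with near-identical sequence, and how such reads were counted is not stated in the labels. Over all kept nuclei Tmem56 was at 162, 138, 156 and 121 CPM and Actb at 210, 76.7, 179 and 267, without a split by label, whereas Rpsa was at 124, 79.7, 162 and 191 and did split. In B cell nuclei both Rpsa (176, 167, 270 and 283 CPM) and Actb (215, 108, 278 and 313 CPM) were higher in the libraries labelled knockout, without scaling. The interaction with macrophage nuclei did not pass for Rpsa (1.76, adjusted p = 0.660), Tmem56 (3.29, adjusted p = 0.420) or Actb (1.35, adjusted p = 0.845). Leaving out the library labelled knockout 2 lost the call of Tmem56, leaving out labelled wild type 1 lost Tmem56 and Actb, and leaving out labelled wild type 2 lost Rpsa and Actb. These 3 genes were also not called when nuclei passing another gate were left out, and the median mitochondrial share given above was higher in both libraries labelled knockout, whose part in the result was not tested.

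**Figure D5:**
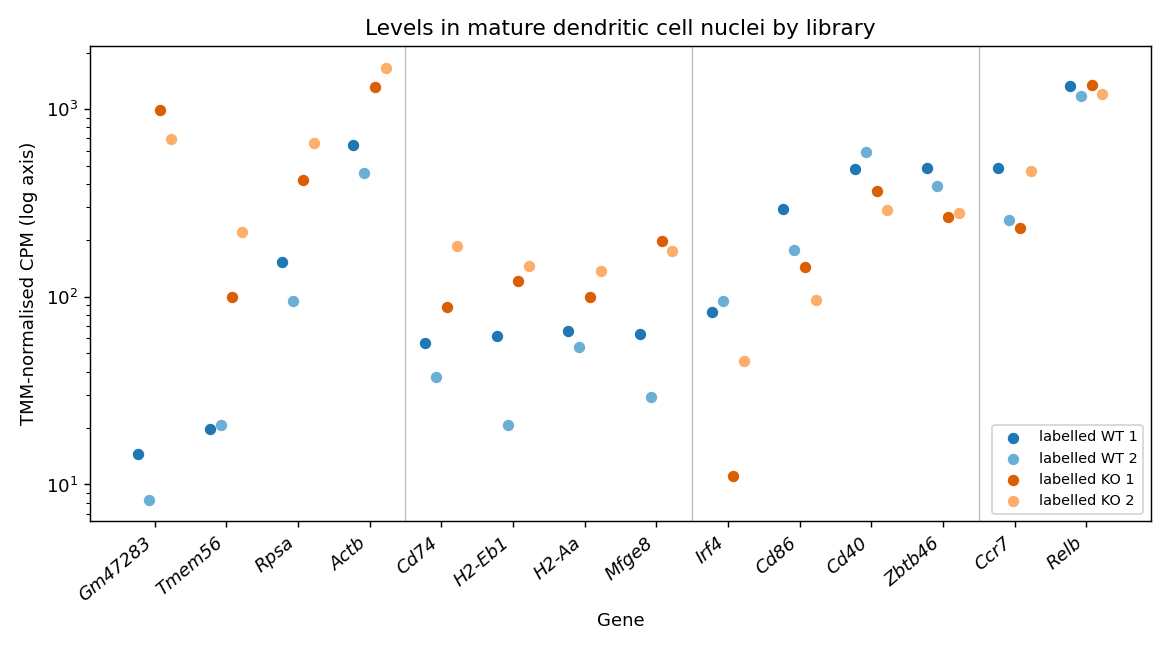
TMM-normalised CPM (y axis, log scale) of 14 genes (x axis) in the mature dendritic cell nuclei of each library; vertical lines separate called genes, other genes whose values were higher or lower in the group labelled knockout, and 2 program genes. Gm47283 to Actb separate the labelled groups past the adjusted threshold, Cd74 to Zbtb46 separate them without passing it, and Ccr7 and Relb overlap.

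Of 14 listed class II genes 5 passed the filter of the label comparison, and these lay higher in the group labelled knockout without passing the test. H2-Aa had 66.1, 54.0, 99.7 and 137 CPM (0.996, adjusted p = 0.631), H2-Eb1 62.2, 20.8, 122 and 146 (1.55, adjusted p = 0.391) and Cd74 56.9, 37.4, 88.6 and 187 (1.57, adjusted p = 0.364). With Ctss and March1, the 5 tested had groups that did not overlap in this direction, against 18.7% of all genes in this direction and 37.6% in either. A gene that is low in 1 group can pass the low-count filter through the group where it is high. The count of 5 could in part be set by that filter, so it is a description and not a test of the list. Over all kept nuclei H2-Aa was at 41.7, 15.5, 28.7 and 132 CPM without scaling, high in the library labelled knockout 2 alone. Among the genes under the filter, Ciita was lower in both libraries labelled knockout (14, 6, 0 and 2 UMIs, or 16.5, 20.6, 0 and 7.77 CPM without scaling), and the groups overlapped for H2-Ab1 (18.9, 6.86, 17.8 and 54.4 CPM). The share of this RNA that came from outside the nuclei was not tested. Mfge8 had 63.5, 29.1, 199 and 175 CPM (1.86, adjusted p = 0.156).

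Several factor and receptor genes had lower values in the group labelled knockout, none of them past the adjusted threshold, and others had higher values. Without overlap, 4 of 15 tested transcription factor genes lay lower and 2 higher, and 2 of 9 costimulation genes lay lower and 2 higher. Over all genes 18.8% lay lower and 18.7% higher in this way, so neither list is read as lowered. Irf4, a transcription factor needed for dendritic cell migration, had 83.3, 95.5, 11.1 and 45.8 CPM (-1.36, adjusted p = 0.586), from 63, 23, 1 and 11 UMIs. Over all kept nuclei Irf4 was at 236, 47.9, 21.1 and 23.0 CPM without scaling, again without overlap. Zbtb46 had 485, 390, 266 and 279 CPM (-0.69, adjusted p = 0.510), Cd40 481, 594, 365 and 291 (-0.73, adjusted p = 0.454) and Cd86 294, 179, 144 and 95.7 (-1.09, adjusted p = 0.429). The groups did not overlap in these 4 genes. Of 20 tested NF-kB pathway genes, 8 lay lower and 2 higher without overlap (median -0.21), against 18.8% and 18.7% of all genes. Small p-values without overlap belonged to Tbc1d14 (640, 648, 210 and 283 CPM, adjusted p = 0.0845), Epc1 (533, 590, 188 and 254, adjusted p = 0.116), Pik3r5 (746, 789, 332 and 366, adjusted p = 0.145) and Prpf38b (889, 960, 543 and 441, adjusted p = 0.280) on the lower side, and to Rps9 (120, 99.7, 288 and 400, adjusted p = 0.0845) on the higher side after the called genes.

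Glucocorticoid target and metallothionein genes were lower than in macrophage nuclei for 4 of 7 tested and higher for 0. Against B cell nuclei they were higher for 2 of 6 tested and lower for 1. Over all libraries the 10 listed genes summed to 753 CPM in mature dendritic cell, 643 in B cell and 2058 in macrophage nuclei, without scaling. Fkbp5, a steroid-induced co-chaperone gene, had 420, 293, 116 and 185 CPM against 1693, 1229, 581 and 1043 in macrophage nuclei (-2.20, adjusted p = 1.05e-08), and between the labelled groups it differed by -1.11 (adjusted p = 0.364). Zbtb16 (-1.23), Sgk1 (-1.50) and Klf9 (-1.68) fell as well. The Klf9 call was lost in 5 of 9 settings, among them DESeq2 and the fits without labelled wild type 2 and without labelled knockout 2, and the Sgk1 call without labelled wild type 1. Interferon response genes were sparse, with 5 of 15 tested. Mx1 (3.63) and Gbp2 (2.45) rose against macrophage nuclei and Oasl2 fell by 3.17. The 7 caveola genes summed to 151, 154, 178 and 276 CPM, or 175 over all libraries. Beside this stood 232 in B cell, 235 in conventional dendritic cell, 359 in macrophage and 900 in the remaining nuclei.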

How the data were processed

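RNA of single nuclei was measured with the Singleron GEXSCOPE kit in 4 libraries. Raw UMI counts for each barcode were deposited, unnormalised, with a lowest barcode total of 500 in each library. The submitters' processing notes name Seurat 4.3.0 and the builds GRCm38 and mm10, and the aligner is not named there. From 15928, 6827, 12454 and 16141 barcodes, 15528, 6664, 11988 and 15887 nuclei were kept. No doublet caller was run.

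Nuclei passing the rule were summed per library and compared in edgeR 4.0.16 (limma 3.58.1, R 4.3.3) with TMM scaling, its low-count filter and the quasi-likelihood test, with Benjamini-Hochberg adjustment over all genes tested and a threshold of 0.05. The label comparison had group alone and 2 residual degrees of freedom. Class comparisons had the library as a block and left out 66 marker genes of the gates. Other classes were nuclei with 3 or more markers of 1 gate. Shares of nuclei have exact Clopper-Pearson intervals and were compared with an exact permutation test in scipy 1.17.1. Thinning drew 500 UMIs per nucleus. Intervals, floors of 3 counts and limits for a count of 0 cover counting error only. The procedure was tested on simulated data. Alternatives were DESeq2 1.42.0, other scaling, no filter, a replicate block, other rules and each library left out.

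The nuclei, the rule and the gene lists were chosen with earlier results of these data known. Genes named are those of the lists, the called genes of the label comparison with the 5 of smallest p in each direction whose libraries did not overlap, and the 15 called genes of largest difference in each direction against another class, predicted genes and gate genes aside. Some of these genes are not reported here. For the genes of the replicate check, the difference of replicate 1 and 2 in the group labelled wild type and in that labelled knockout had a correlation of -0.121 over 4485 genes. Gene positions came from the GENCODE annotation of GRCm38, which held 53620 of the 53715 gene IDs, and promoters from RefSeq GRCm38.p6.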

Additional observations from a re-analysis of the deposited data

Results flagged for a closer look

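For 8 of 6615 genes (0.121%) the difference between the labelled groups was not the same in mature dendritic cell and macrophage nuclei, by edgeR's test of the interaction. DESeq2 called 0 of these interactions at the adjusted threshold, with 125 genes at an unadjusted p under 0.05. Each value below is the label difference (labelled knockout minus labelled wild type, log2) in mature dendritic cell nuclei minus that in macrophage nuclei, and CPM are TMM-normalised.

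Dapk1, a death-associated kinase gene, had 53.6, 49.5, 151 and 119 CPM in mature dendritic cell nuclei and 730, 783, 178 and 336 CPM in macrophage nuclei, a difference of 2.79 (adjusted p = 0.0156). The labelled groups thus lay in opposite orders in the 2 classes. Plcb1, a phospholipase C gene, had 56.6, 31.5, 57.9 and 176 CPM against 925, 799, 237 and 446 (2.71, adjusted p = 0.0203), and Csmd1, a large membrane protein gene, 155, 63.1, 255 and 409 against 596, 346, 261 and 137 (3.10, adjusted p = 0.00112). Slc7a2, an arginine transporter gene, had 13.4, 13.5, 34.7 and 281 CPM against 57.5, 30.7, 23.7 and 39.2 (4.28, adjusted p = 0.0351), and its high value in mature dendritic cell nuclei came from the library labelled knockout 2.

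The other 4 were mitochondrially encoded. mt-Cytb had 1878, 1531, 4169 and 2286 CPM in mature dendritic cell nuclei against 1031, 1536, 403 and 480 in macrophage nuclei (2.31, adjusted p = 0.0319). Differences were 2.34 for mt-Nd1 (adjusted p = 0.0325), 2.18 for mt-Nd4 (adjusted p = 0.0351) and 2.12 for mt-Nd2 (adjusted p = 0.0367). The filter on mitochondrial UMIs caps these genes at 10% per nucleus.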

How the results depend on the processing

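For the number and share of mature dendritic cell nuclei, the lower value in the libraries labelled knockout (-1.86 on the log2 scale) kept its direction, without overlap, in the other 15 settings, between -2.07 and -0.89, and between -1.98 and -1.74 with a library left out. The adipocyte limit, program genes, immune and myeloid denominators, a rule of 2 genes on thinned nuclei and the crossed block were chosen after seeing the data. The 4 genes called between the labelled groups became 2 with RLE scaling, 16 with no low-count filter, and 1 each with at least 4 marker genes, with nuclei of at least 1000 UMIs and 500 genes, and without nuclei passing another gate. With a library left out the count lay between 6 and 136, where the lone library of a group is assumed to vary like the others. The replicate block gave 2 calls, and a crossed pairing 4. Only Gm47283 was called in each of its 14 settings. Against macrophage nuclei 2212 genes were called, and between 1522 and 2113 with a library left out, and against B cell nuclei 3209, and between 1959 and 2905. Of named genes called, 118 of 136 and 115 of 144 stayed called in every setting in which they were tested, and some were not tested in every setting. The 8 interactions became 0 with DESeq2, 0 with no low-count filter (343 genes at an unadjusted p under 0.05), and between 0 and 13 with a library left out. The cause of these changes was not tested. No named gene past the threshold turned its direction. The alternatives for conventional dendritic cell nuclei were not run, since 1 library had 9 of them, under the 10 set for that test. The fewest UMIs behind a label comparison of genes were 112569, from 66 nuclei of the library labelled knockout 1.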
